A study of Mus musculus with 3 samples.

Results

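The retinoid and NR2 nuclear receptor genes are 10 protein-coding genes of the mouse: the retinoic acid receptor genes Rara, Rarb and Rarg, the retinoid X receptor genes Rxra and Rxrb, the COUP-TF group Nr2f1, Nr2f2 and Nr2f6, and the testicular receptor genes Nr2c1 and Nr2c2. Peaks of Flag-tagged Bcl11a were collected inside these genes or within 100 kb of either outer end, and each went to the protein-coding gene whose end lay nearest to its summit. A region was called reproducible where overlapping peaks of all 3 libraries joined. By this rule 19 of 22987 reproducible regions belonged to 8 of the 10 genes. Single libraries gave these genes 36, 34 and 43 peaks, out of 38731, 36459 and 43462 peaks in libraries 1, 2 and 3.

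The material was sorted LSK cells of mouse bone marrow, the lineage-negative, Sca-1-positive and Kit-positive fraction that holds blood stem and early progenitor cells. All 3 libraries belonged to 1 group, from knock-in mice whose Bcl11a carries a 3xFlag tag at its N-terminus per the design text, although the genotype label reads wildtype. The age of the mice, the use of separate animals and an untagged control are not given in the sources used here, so spreads are between these libraries whatever their source, and signal at open chromatin that does not depend on the tag was not told apart from binding. In a cell mixture, a region present in part of the cells and a weaker region present in all of them cannot be told apart.

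Retinoic acid, made from vitamin A, binds the RAR proteins, which sit on DNA as pairs with RXR proteins and switch from repression to activation when the ligand arrives. In blood, retinoid signalling is known for its part in stem cell dormancy and myeloid differentiation. RXR proteins belong to the NR2 family themselves and pair with many other receptors. The COUP-TF proteins are orphan receptors that mostly repress, and Bcl11a is also known as COUP-TF-interacting protein, because it was isolated as a partner of that group. The Nr2c1 and Nr2c2 products, TR2 and TR4, bind repeats of AGGTCA and are known as repressors of embryonic and fetal globin genes, the genes for whose silencing Bcl11a is best known.

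The sequences that frame the results are the 250 bases before an annotated start, from the RefSeq promoter table (GRCm38.p6, the assembly behind mm10). Both Nr2c genes and Nr2f6 had a reproducible region at their start, and Nr2f1 and Nr2f2 had none anywhere within 100 kb, so these starts are set side by side with capitals marking each CpG. They lie at chr6:92092183-92092432, plus strand (Nr2c2), chr10:94147681-94147930, plus strand (Nr2c1), chr8:71381953-71382202, minus strand (Nr2f6), chr13:78198874-78199123, minus strand (Nr2f1, the upstream of its starts) and chr7:70366747-70366996, minus strand (Nr2f2), and read 5′ to 3′ along the gene's strand.
Nr2c2: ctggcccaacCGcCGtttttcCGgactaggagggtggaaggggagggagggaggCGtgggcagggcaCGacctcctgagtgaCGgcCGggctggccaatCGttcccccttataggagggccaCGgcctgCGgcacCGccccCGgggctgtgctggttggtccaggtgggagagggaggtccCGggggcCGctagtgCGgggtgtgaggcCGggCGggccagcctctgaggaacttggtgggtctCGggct
Nr2c1: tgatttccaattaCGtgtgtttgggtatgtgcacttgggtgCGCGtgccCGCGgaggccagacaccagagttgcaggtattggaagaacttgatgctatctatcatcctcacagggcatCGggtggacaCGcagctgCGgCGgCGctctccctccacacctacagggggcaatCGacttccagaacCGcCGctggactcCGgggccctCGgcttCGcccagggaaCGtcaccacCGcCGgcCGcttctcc
Nr2f6: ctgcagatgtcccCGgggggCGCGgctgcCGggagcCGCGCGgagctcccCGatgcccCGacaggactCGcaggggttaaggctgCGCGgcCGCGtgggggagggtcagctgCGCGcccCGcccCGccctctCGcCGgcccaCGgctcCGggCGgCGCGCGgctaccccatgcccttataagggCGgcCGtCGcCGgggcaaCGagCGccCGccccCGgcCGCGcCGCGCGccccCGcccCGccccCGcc
Nr2f1: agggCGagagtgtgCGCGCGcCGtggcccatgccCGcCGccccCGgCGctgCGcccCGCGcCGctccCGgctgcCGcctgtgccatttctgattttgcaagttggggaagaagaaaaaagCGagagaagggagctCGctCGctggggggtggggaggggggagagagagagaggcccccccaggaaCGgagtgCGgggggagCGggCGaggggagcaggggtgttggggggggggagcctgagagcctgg
Nr2f2: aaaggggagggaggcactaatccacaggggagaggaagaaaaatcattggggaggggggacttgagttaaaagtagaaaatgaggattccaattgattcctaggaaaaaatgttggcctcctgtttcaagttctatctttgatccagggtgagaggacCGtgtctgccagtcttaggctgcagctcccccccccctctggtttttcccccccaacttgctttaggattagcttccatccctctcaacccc

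These windows hold 18 CpG at Nr2c2, 20 at Nr2c1, 42 at Nr2f6, 22 at Nr2f1 and 1 at Nr2f2. Over all 32851 windows of the table the median was 6. It was 17 for the 11523 starts with a reproducible region within 1 kb and 3 for the other 21328. The upstream start of Nr2f1 thus held as many CpG as those of the Nr2c genes and lacked a region, while the downstream Nr2f1 start, with 2, and the Nr2f2 start were poor in CpG. The upstream Rxra start had 40 CpG and also lacked a region of all 3 libraries.

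The other pair of windows was chosen for receptor motifs. The Rarb start (chr14:16575477-16575726, minus strand) carries the retinoic acid response element known for this gene, a repeat of GTTCA in the same direction with 6 bases between, at bases -52 to -37 from the start. The downstream Rxra start (chr2:27709042-27709291, plus strand) carries TGACCA, the motif reported for Bcl11a, on the minus strand between an AGGTCA on each strand. Capitals mark these matches, and in Rarb also the bases between the repeats.
Rarb: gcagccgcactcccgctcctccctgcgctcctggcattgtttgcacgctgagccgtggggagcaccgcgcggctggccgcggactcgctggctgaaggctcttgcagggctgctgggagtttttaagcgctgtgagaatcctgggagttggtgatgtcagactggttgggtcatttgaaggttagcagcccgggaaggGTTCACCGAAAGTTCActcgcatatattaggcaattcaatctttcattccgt
Rxra: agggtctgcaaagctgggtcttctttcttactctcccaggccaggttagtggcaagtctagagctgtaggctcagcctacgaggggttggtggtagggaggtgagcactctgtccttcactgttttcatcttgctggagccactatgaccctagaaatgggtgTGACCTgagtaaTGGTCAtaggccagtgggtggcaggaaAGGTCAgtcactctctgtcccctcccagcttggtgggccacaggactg

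Neither of these starts had a reproducible region within 1 kb, and no library had a peak within 1 kb of the Rarb start. The motifs were searched on both strands of the 250 bases, and GGTCA is itself part of AGGTCA and, read on the other strand, of TGACCA. Of the 17 annotated starts of the 10 genes, 2 held TGACCA (Rxra and Nr2f1, each at the downstream start), where 11.4% of all windows did. AGGTCA was in 2 (Rarg and Rxra) against 14.0% of all, and GGTCA in 6 against 35.2%. A pair of AGGTCA with 1 base between, the arrangement that TR2 and TR4 prefer, was in none of the 17 and in 11 of all 32851 windows. The GTTCA repeat of Rarb was in 22 windows, of which 1 had a reproducible region within 1 kb. Across all starts TGACCA was no more frequent beside reproducible regions (9.96%) than elsewhere (12.1%). The same held for AGGTCA (10.1% and 16.1%). The starts beside regions were also richer in GC (median 61.6% against 48.4%). The sequence under the peaks was not searched, so these shares do not tell how often the regions themselves hold a motif. A match is a description of letters only.

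Genes with a reproducible region no farther than 1 kb from an outer end are called occupied here. Both Nr2c genes, Nr2f6, Rxrb and Rarg were occupied, 5 of 10, where 45.2% of 21887 protein-coding genes were. A share this close to that of all genes says nothing particular about the receptors as a set. Counted at annotated starts, with strand, 6 of the 10 genes had a region within 1 kb, against 46.9% of the 17492 protein-coding genes in the promoter table. The added gene was Rara, whose starts lie inside its outer ends. Rara has 4 annotated starts, and protein-coding genes with 1 start had such a region in 43.6% of cases. At least 1 region was given to 8 of 10 genes (53.6% of all protein-coding genes), and at least 2 to 5 of 10 (21.4%). No region at all lay inside or within 100 kb of 2 of the 10, Nr2f1 and Nr2f2, as for 20.8% of protein-coding genes.

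**Figure D1:**
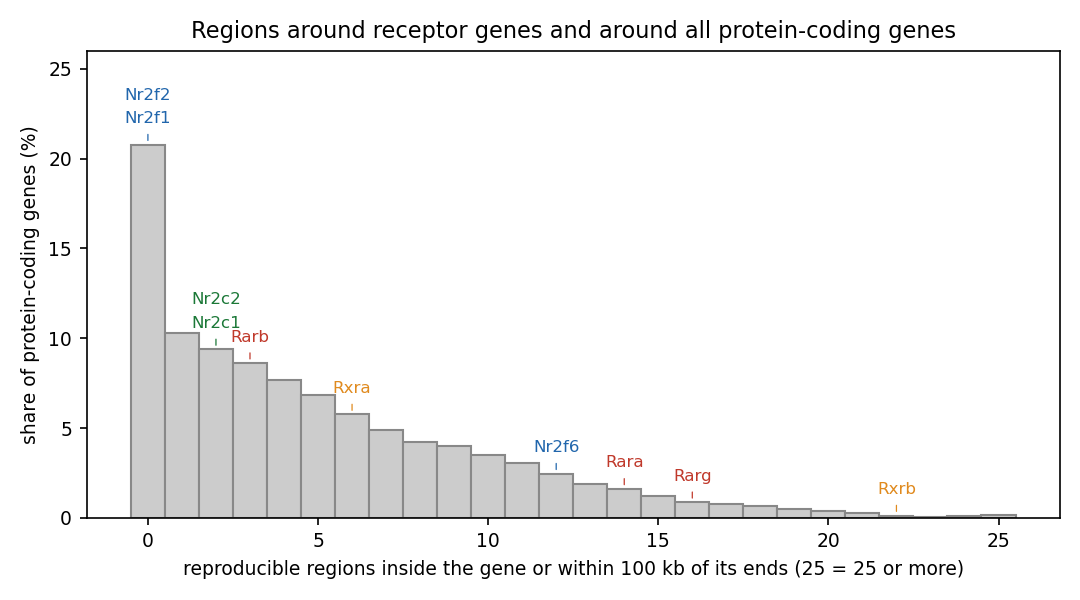
The grey bars give the share of all protein-coding genes (y axis, percent) by the number of reproducible regions inside the gene or within 100 kb of its ends (x axis, 25 standing for 25 or more). The receptor genes are named above their count, from 0 at Nr2f1 and Nr2f2 to 22 at Rxrb, a spread that covers nearly the whole range of the genome.

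Regions of the window were counted for every gene whichever end they lay nearest to, which gave 77 regions for the 10 genes. Rxrb had 22, more than 99.6% of protein-coding genes, Rarg 16, Rara 14, Nr2f6 12, Rxra 6, Rarb 3, Nr2c1 and Nr2c2 2 each, and the remaining Nr2f genes 0. In the plot of these counts Rxrb lies at the far right, and it sits among the closely packed genes of the major histocompatibility complex. Of its 22 regions 1 was nearest to Rxrb itself. The 6 regions of the Rxra window were more than 63.6% of protein-coding genes had. Per 100 kb of window that was 2.09, where the median over genes was 1.46. All 6, in contrast to those around Rxrb, went to Rxra. Rxra therefore had the most regions of its own, more than 97.8% of protein-coding genes, followed by Rarg with 4. This order was lost under stricter rules: with −log10 q of at least 5, Rara, Rarb, Rarg and Rxra had 2 each, and with the 10000 strongest peaks of each library Rxra had 1.

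The testicular receptor gene Nr2c2 (chromosome 6, 92091418 to 92173058) had the strongest region by fold enrichment, the authors' ratio of the summit pileup to the local background of the same library. It was 14.4, 13.9 and 13.3 in libraries 1, 2 and 3, or 13.9 ± 0.56 (SD, n = 3). All libraries gave nearly the same value, and 97.8% of all reproducible regions were at or below this mean. The region (92091715 to 92092613) covered the annotated start, with summits at -141, -282 and -276 bp from it. The pileups at the summit were 78, 98 and 101 fragments, as solved from the deposited fold and p. Its other window region was nearest to Fgd5, so the gene had a single region of its own and none inside beyond the start. The occupied call of Nr2c2 ended with a 250 bp window at an end.

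Nr2c1 (chromosome 10, 94147542 to 94197216) likewise had 1 region, over its start (94147507 to 94148670). It had 0 when peaks had to overlap by 50% of each other or when the 10000 strongest peaks of each library were taken, so its occupied call ended under both. Fold enrichment was 9.01, 7.65 and 6.63, or 7.76 ± 1.19 (SD, n = 3). The values of the Nr2c genes did not overlap, Nr2c2 being higher in each library. The summits lay at -295, 347 and -268 bp from the start, the widest spread of the 19 regions apart from 1 in Rxra. Only 22, 22 and 20 fragments stood at the summits. The local background in the denominator of the fold was low there, at 1.55, 2.01 and 2.17 fragments per base, where that of Nr2c2 was 4.48, 6.13 and 6.67.

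Among the COUP-TF genes, Nr2f6 (chromosome 8, 71374118 to 71381967), which encodes EAR2, a factor known to restrain blood cell differentiation, was the one with regions. The region at its start (71381774 to 71382434) had a fold enrichment of 6.48, 7.02 and 4.23, or 5.91 ± 1.48 (SD, n = 3). Library 3 was lower than the others there, although its pileup of 60 fragments was close to the 63 of library 2 and above the 41 of library 1. The summits of the 3 libraries were at -175, -172 and -175 bp from the start, within 3 bp of each other, where the median spread over all reproducible regions was 128 bp. They fall in the printed Nr2f6 window, upstream of its one GGTCA, at bases -147 to -143. A weaker region inside the gene (71375381 to 71376103) had 3.79, 2.90 and 2.53, or 3.07 ± 0.65 (SD, n = 3), the lowest mean of the 19. With −log10 q of at least 5 the gene had 1 region, and it stayed occupied.

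Nr2f1 and Nr2f2, which encode COUP-TFI and COUP-TFII, regulators of neural and vascular development, had no reproducible region. Around Nr2f1 (chromosome 13, 78188971 to 78198873) the window held 2 peaks, both of library 2 and both inside the gene, with folds of 4.15 and 3.74 on 9 and 8 fragments. Around Nr2f2 (chromosome 7, 70351946 to 70366746) it held 3 peaks, 2 of library 1 and 1 of library 3, none above 13 fragments or a fold of 4.84. No peak of 1 library overlapped a peak of another at either gene. The nearest reproducible region was 1597 kb from an end of Nr2f1 and 190.6 kb from an end of Nr2f2 (fold 4.47 ± 0.34, SD, n = 3). That last region was well outside the 100 kb limit of the rule, and the farthest one within the limit lay 90.3 kb from Rarb. Both genes stayed at 0 when a peak in any 2 libraries was enough.

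**Figure D2:**
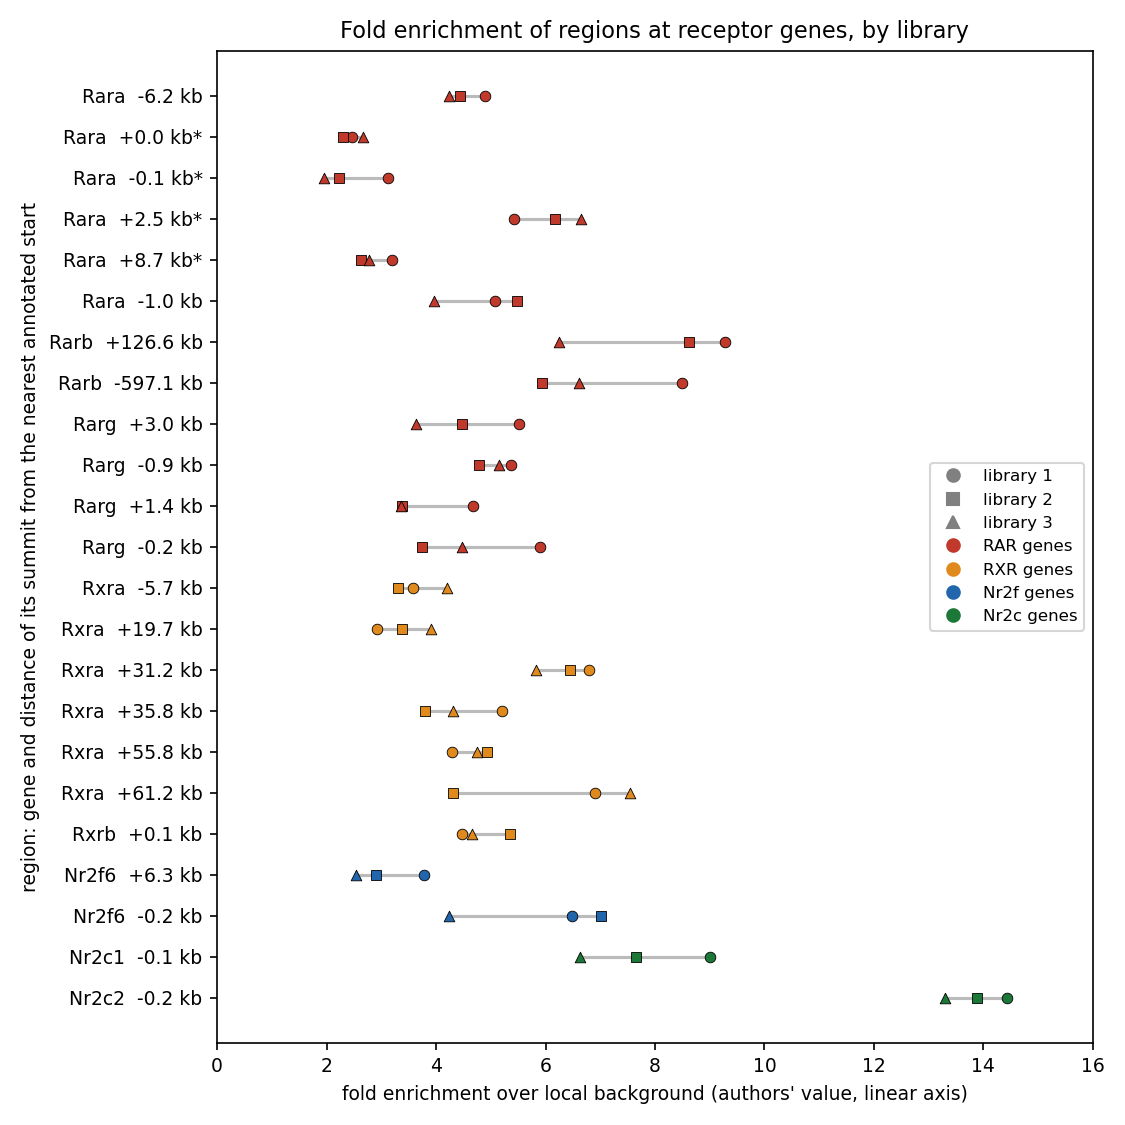
Fold enrichment over local background (x axis, linear) is plotted for each region (rows, with the summit's distance from the nearest annotated start), with 1 symbol per library and a colour per gene family. Asterisks mark the 4 regions inside Rara that lay nearer to an end of Gm46294. Nr2c2 stands alone above 13, and most RAR and RXR regions lie between 3 and 7.

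Rara (chromosome 11, 98927800 to 98974942), the receptor gene broken in acute promyelocytic leukaemia, had 6 reproducible regions inside it. The rule gave 2 of these to Rara. The other 4 lay nearest to an end of Gm46294, a predicted gene nested within Rara, and are described here because they lie inside Rara. Of these, 2 reached within 1 kb of a Rara start and the other two lay 2469 and 8693 bp past one. The region over the starts at 98937696 and 98937718 (98937549 to 98938089) had pileups of 49, 67 and 100 fragments. Its fold enrichment was nevertheless 2.46, 2.30 and 2.66, or 2.48 ± 0.18 (SD, n = 3), a value that 0.218% of all reproducible regions were at or below. The next start, at 98939711, had a region with 2.44 ± 0.61 (SD, n = 3).

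Downstream of these starts, in the gene body, the region at 98941520 to 98943687 had the highest pileup of any inside the receptor genes. Its summits carried 130, 215 and 298 fragments, and they lay within 1 bp of each other in the 3 libraries. Relative to the library background this was 122, 153 and 153, or 143 ± 18.0 (SD, n = 3), at or above 99.1% of all reproducible regions. Its fold enrichment of 6.08 ± 0.62 (SD, n = 3) was near the median of all regions, 6.25. The local background in the denominator of the fold was high here, at 23.1, 34.0 and 43.9 fragments per base, against genome-wide backgrounds of 1.07, 1.41 and 1.95. Over all 4 regions it ran from 9.98 to 43.9.

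Of the regions given to Rara, 1 lay at -6220 bp from the nearest start (98931038 to 98931668), with folds of 4.90, 4.43 and 4.23, or 4.52 ± 0.34 (SD, n = 3). The other (98962995 to 98964203) came within 1 kb of the most downstream start and had 5.09, 5.49 and 3.97, or 4.85 ± 0.79 (SD, n = 3). Their values overlapped between libraries. Without library 2 the count given to Rara was 5, since peaks shared by libraries 1 and 3 then sufficed, and with the 10000 strongest peaks it was 1.

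Rarg (chromosome 15, 102234938 to 102257522), the receptor gene linked to stem cell self-renewal, had 4 regions, with a region over each of its annotated starts. It had 2 with −log10 q of at least 5 and 1 with the 10000 strongest peaks, and its occupied call ended under both and with 50% reciprocal overlap. The upstream start (102257082 to 102258082) had folds of 5.90, 3.74 and 4.47, or 4.70 ± 1.10 (SD, n = 3), on 21, 15 and 27 fragments. The downstream start (102246422 to 102247780) had 5.37, 4.78 and 5.16, or 5.10 ± 0.30 (SD, n = 3), on 46, 58 and 82 fragments. The folds of the starts overlapped, but the pileup at the downstream start was higher in every library, at 42.2 ± 0.93 times the library background against 14.7 ± 4.56 (SD, n = 3). A region within the gene, 2989 bp past the downstream start (102243261 to 102243885), had 4.54 ± 0.94 and one 1450 bp past the upstream start (102255840 to 102256365) 3.81 ± 0.75 (SD, n = 3).

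Rarb (chromosome 14, 16430839 to 17082331), the receptor gene that retinoic acid itself induces, is the longest of the 10 at 651493 bp and had 2 regions, neither near its start. One lay 126613 bp downstream of the annotated start, near the far end of the gene (16448475 to 16449137). Its folds were 9.28, 8.63 and 6.24, or 8.05 ± 1.60 (SD, n = 3), the second highest mean of the 19 regions, on 24, 22 and 23 fragments. The other was outside the gene, 90.3 kb beyond its higher-coordinate end (17172129 to 17173127), with 8.50, 5.93 and 6.61, or 7.01 ± 1.33 (SD, n = 3). Of its 21 peaks 6 (28.6%) were in reproducible regions, where 59.8% of all peaks were. The Rarb count moved both ways: it was 4 without library 1, 1 within 50 kb, and 0 both with the 10000 strongest peaks and when the ends of all annotated genes competed.

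**Figure D3:**
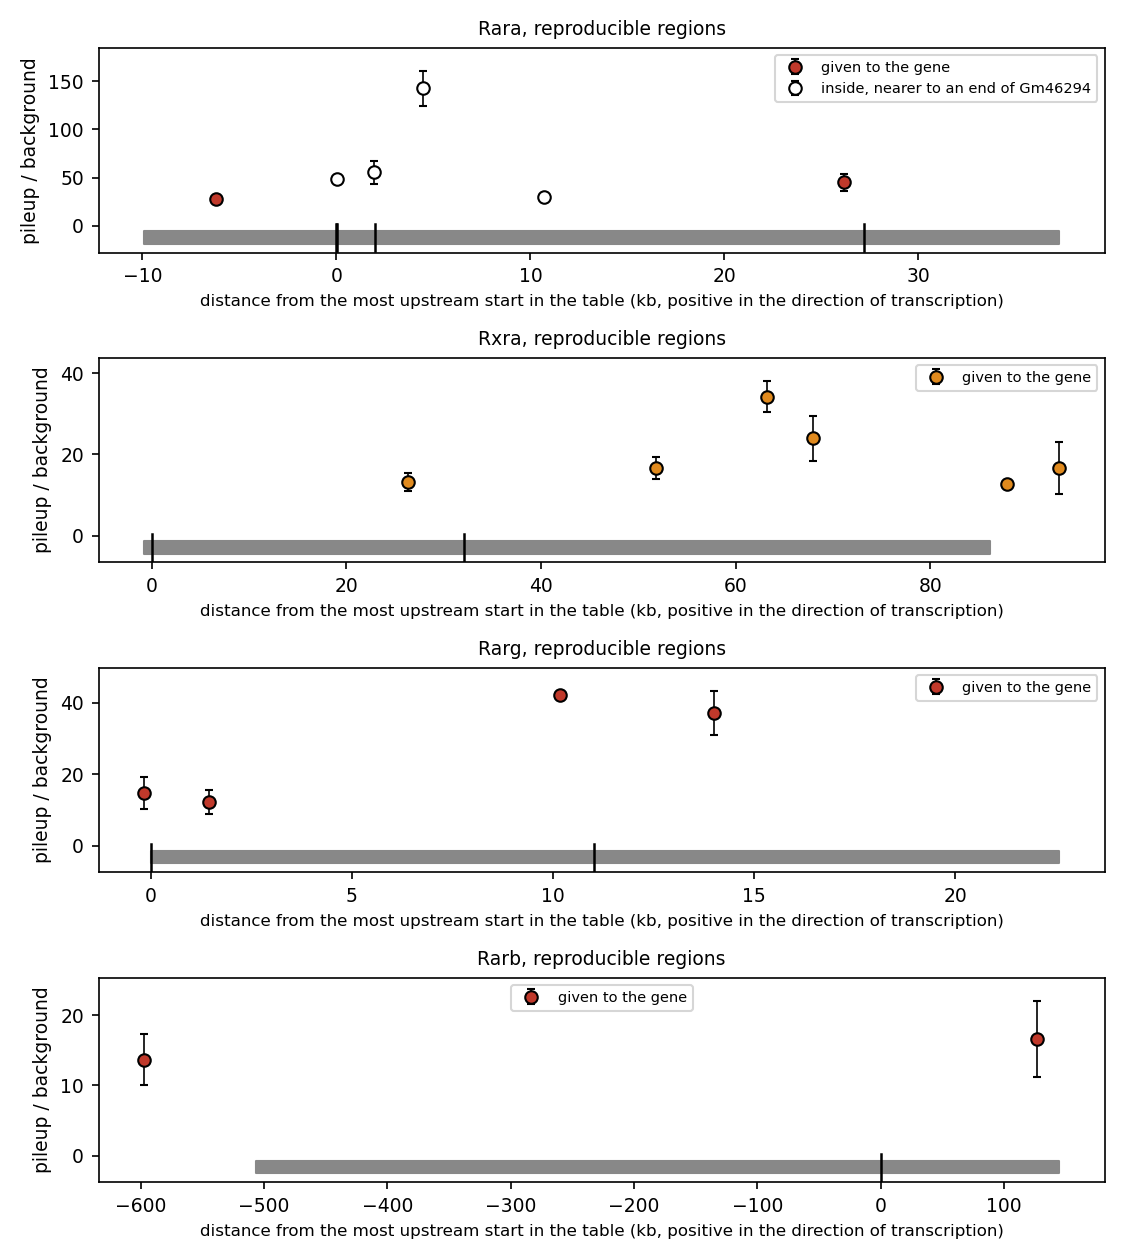
Each panel shows a receptor gene (grey bar, with black ticks at annotated starts) and its reproducible regions by distance of the summit from the most upstream start of the promoter table (x axis, kb) and by summit pileup over the library background (y axis, mean with SD bars over 3 libraries). White points are the regions inside Rara nearer to an end of Gm46294, the highest of them at 143. In Rxra and Rarb no region lies at a start.

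Rxra (chromosome 2, 27676445 to 27763319) encodes the main partner of RAR proteins and had 6 regions, 4 inside it and 2 beyond its finish, none of them within 1 kb of an end or a start. The strongest by fold lay 31156 bp past the downstream start (27740003 to 27740808), at 6.79, 6.45 and 5.82, or 6.35 ± 0.49 (SD, n = 3), on 41, 47 and 60 fragments. A narrow one of 301 bp beyond the gene (27770317 to 27770617) had 6.91, 4.30 and 7.54, or 6.25 ± 1.72 (SD, n = 3), with library 2 low and on 13 fragments. The summits there still lay within 19 bp of each other. The other 4 had means from 3.40 to 4.66.

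At the first Rxra start, peaks of libraries 2 and 3 overlapped (27676290 to 27676959, folds 4.36 and 3.50 on 24 and 27 fragments), and library 1 had none. Library 1 had the lowest background, 1.07 fragments per base, but more peaks than library 2 (38731 against 36459). Whether depth bears on the missing peak was not tested. Without library 1 Rxra had 10 regions and counted as occupied at an end. The absence of an Rxra start region among the 19 thus rests on library 1.

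Rxrb (chromosome 17, 34031812 to 34038403) had 1 region, over its upstream start (34031435 to 34032226). Its folds were 4.48, 5.35 and 4.66, or 4.83 ± 0.46 (SD, n = 3), which is the median of the 19 regions. The pileups of 40, 72 and 81 fragments put it at or above 88.0% of all reproducible regions. A neighbouring region given to Col11a2 (34039007 to 34040292, fold 3.74 ± 0.43, SD, n = 3) also came within 1 kb of its other end. Without library 2 a further region joined, making 2.

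Over the 19 regions, the means of fold enrichment ran from 3.07 to 13.9 with a median of 4.83, against 6.25 for all reproducible regions, and 6 of the 19 were above that median. By pileup over the library background the order turned. The median of the 19 was 22.2 against 17.7 for all, and 10 of 19 were above it. The direction of this difference hence depends on the measure, and the receptor regions cannot be called weak or strong as a set. By library the median fold of the 19 was 5.37, 4.78 and 4.47, and library 1 gave the highest fold in 12 of them (40.0% of all regions). Pileups were highest in library 3 in 15 of 19, and that library also had the highest background. The share over all regions was not counted for pileup, so this count says nothing particular about the 19. The median width was 792 bp (752 bp for all regions). Of the 19 regions 14 had their summit inside the gene, a place that was not counted for all regions.

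**Figure D4:**
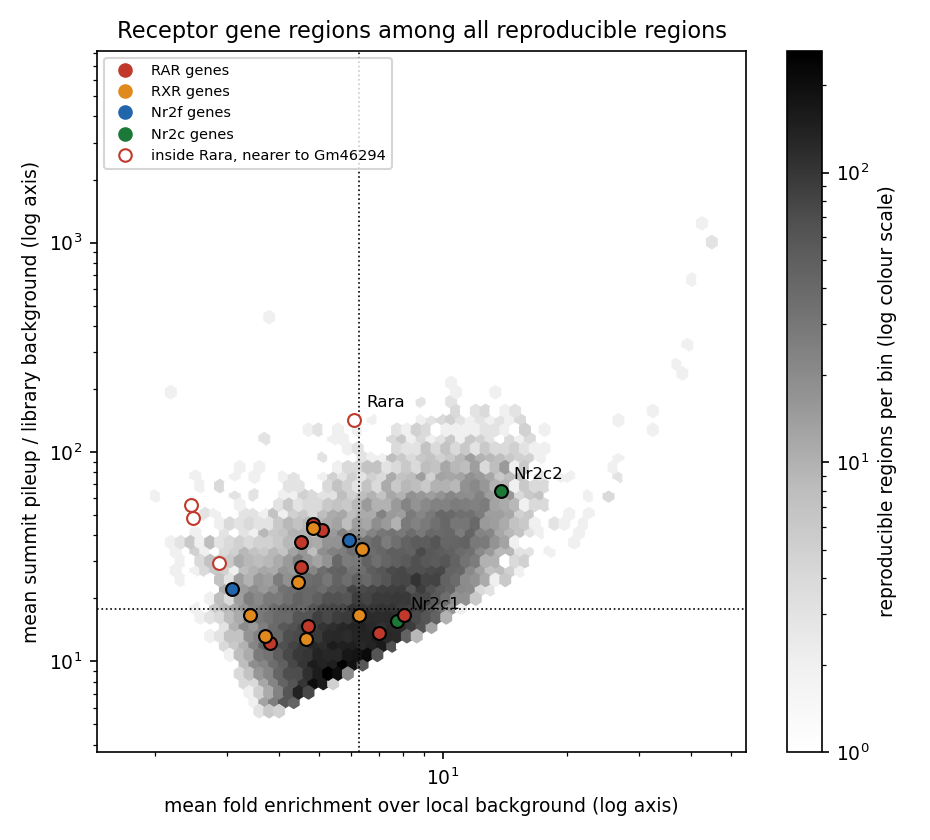
Mean fold enrichment (x axis, log) is set against mean summit pileup over the library background (y axis, log) for all 22987 reproducible regions (grey bins, darker where more regions fall) and the receptor gene regions (coloured by family, white inside Rara nearer to Gm46294). Dotted lines mark the medians of all regions, 6.25 and 17.7. Nr2c2 is high on both axes, Nr2c1 and Rarb are above the median by fold only, and the Rara start regions are at the low end by fold and above the median by pileup.

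The genes around the receptors in the pathway were looked at by the same rule of occupied ends, beside 45.2% of all protein-coding genes. Genes of retinoid supply and turnover were occupied in 5 of 17 cases. Among these were Rdh10, which makes retinal (8.87 ± 0.53), the dehydrogenase gene Dhrs9 (8.39 ± 1.59), Aldh1a2 and Aldh1a3, which make retinoic acid (5.52 ± 0.38 and 6.48 ± 1.42), and Fabp5, a carrier of fatty acids and retinoic acid (9.35 ± 2.49, SD, n = 3 for each). The end region of Rdh10 lay nearest to an end of another gene, and Rdh10 had 0 regions of its own. Among those with no peak near an end, even in a single library, were Aldh1a1, Crabp1, Cyp26b1, Cyp26c1 and Lrat. The genes that make retinoic acid were thus split, and of the Cyp26 genes, whose products degrade it, none had an occupied end. Cyp26b1 still had 2 regions of its own away from its ends, and Cyp26a1 had a peak at an end in at least 1 library.

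Genes that retinoic acid is known to induce were occupied in 3 of 12 cases. These were Hoxb1 (7.60 ± 0.98), Cebpe, a regulator of granulocyte maturation (5.17 ± 0.32), and the transglutaminase gene Tgm2 (3.71 ± 0.69, SD, n = 3 for each). Genes for which even single libraries gave no peak near an end included Cdx1, Cyp26b1, Rarb and Rarres1. Dhrs3, a retinaldehyde reductase gene, had 4 regions of its own and a region at a start inside its outer ends. Rarb and some genes of retinoid turnover stand in this list as well, so the lists are not separate.

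Partners of RXR were occupied in 10 of 13 cases. The strongest were the oxysterol receptor gene Nr1h3 (10.1 ± 0.24), the orphan receptor gene Nr4a2 (9.14 ± 1.76), the thyroid hormone receptor gene Thrb (8.50 ± 2.20) and Pparg, the regulator of fat cells (7.39 ± 0.24, SD, n = 3 for each). Nr1i2, the xenobiotic receptor gene, had none in any library. The end region of Nr1h3 lay nearest to an end of another gene, and Nr1h3 had 0 regions of its own. Coregulators of nuclear receptors were occupied in 14 of 14 cases, led by Tbl1x of the NCoR complex (9.55 ± 1.67), the acetyltransferase genes Crebbp (9.33 ± 2.02) and Ep300 (8.33 ± 0.54), and Ncoa1, a coactivator (8.41 ± 1.77, SD, n = 3 for each). Of the NR2 and RXR genes outside the 10 (Rxrg, Nr2e1, Nr2e3, Hnf4a and Hnf4g), whose products act mostly outside blood, 0 of 5 were occupied. Rxrg had a peak at an end in at least 1 library, and the other 4 had none. Hnf4a had 3 regions of its own away from its ends. The median number of regions given per gene was 1 for RXR partners, coregulators and induced genes, as for all protein-coding genes, and 0 for supply genes and the NR2 and RXR genes outside the 10.

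**Figure D5:**
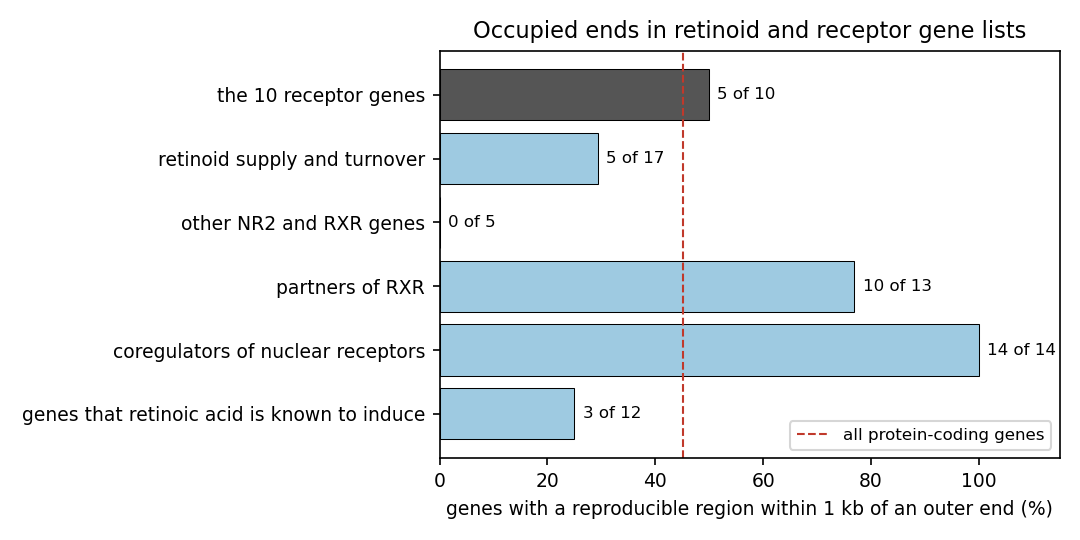
Bars give the share of genes with a reproducible region within 1 kb of an outer end (x axis, percent) for the receptor genes (dark) and each list (light), with counts at the bar ends and the share of all protein-coding genes as the dashed line at 45.2%. Coregulators and RXR partners lie to the right of the line, and supply, induced and remaining NR2 and RXR genes to the left.

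As a check of the labelled cell type, 4 of 6 LSK marker genes had an occupied end, Kit, Cd34, Flt3 and Mecom, and 0 of 10 genes of lineage-positive cells, beside 45.2% of all protein-coding genes. Ly6a, which encodes Sca-1, and Hlf had no reproducible region at an end, though at least 1 library had a peak there, as was so for Cd3e of the T cell lineage. Away from its ends the myeloid gene Itgam had 5 regions of its own, as many as Kit. Markers of other tissues, Krt5, Alb and Neurod1, had 0 of 3. Peaks are not expression, so these counts describe where peaks lie and not RNA.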

How the data were processed

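CUT&Tag peak lists of 3 libraries were used. Per the submitters' processing notes, Bowtie2, SAMtools and MACS2 were used with the genome mm10, and versions are not given in the sources used here. Each deposited list gives, per peak, the fold enrichment (a ratio of summit pileup to local background), −log10 p-value and −log10 q-value, the summit position, and a score, about 10 times the −log10 q, that was not used. The lowest −log10 q was 1.30 to 1.31, which a q threshold of 0.05 gives.

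Summit pileup and local background were solved from the deposited fold, as pileup plus 1 over background plus 1, and the Poisson p. Within 0.05 of a fragment, 100% of pileups came out whole. The lowest background of each library was 1.07, 1.41 and 1.95 fragments per base and stands for depth, since fragment totals are not in the lists. Peaks were joined at 1 bp of overlap. The strongest peak of a library gave the region its value. Genes, ends, starts and promoter sequences came from RefSeq tables of GRCm38.p6. All 10 genes matched, and starts were found for all 10. Of protein-coding genes, 17492 of 21887 had a start. Scripts ran in Python 3.11.15 with pandas 2.3.3, scipy 1.17.1 and matplotlib 3.10.9, and the joining, assignment and solving steps were tested on simulated data.

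With 1 group no comparison between samples exists, and over 3 pairs of libraries an exact permutation test cannot go below p = 0.25, so no test was run. Values are mean ± SD over libraries. The members, lists, motifs and rules were chosen with earlier results of these data known. All 10 genes are named. Of each list, every occupied gene is named where at most 6 are occupied and otherwise the 4 strongest, with up to 6 genes that lack a peak in any library; a few genes of the lists are counted but not reported here by name. Occupancy at annotated starts was added after seeing the data.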

Additional observations from a re-analysis of the deposited data

How the results depend on the processing

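Counts over the 10 receptor genes followed the strictness of the peak rule. The main counts were 19 regions, 1.9 per gene, 5 occupied genes and 32 of the 56 genes of the pathway lists. All reproducible regions then numbered 22987, and 45.2% of protein-coding genes were occupied. With −log10 q of at least 5, 12 regions (1.2 per gene) were left, of 16722 in all. With the 10000 strongest peaks of each library 6 regions (0.6 per gene) were left, of 7210 in all. Occupied were then 3 of the 10 genes and 11 of the 56 list genes, where 20.6% of all protein-coding genes were. A peak in at least 2 libraries gave 33 regions (3.3 per gene), of 32818 in all. Giving every region of the windows to the receptor gene gave 77 (7.7 per gene). With 50% reciprocal overlap 3 genes were occupied, Rxrb, Nr2f6 and Nr2c2, where 38.2% of all protein-coding genes were. These 3 were also the ones left with the strongest peaks. With a 250 bp window at an end, Rarg, Rxrb, Nr2f6 and Nr2c1 were occupied and Nr2c2 was not, beside 40.7% of all protein-coding genes. Leaving out a library in turn gave 21 to 26 regions, 2.1 to 2.6 per gene, 5 to 6 occupied genes, 32 to 35 of the lists and a median fold of 4.76 to 4.99. Of all protein-coding genes 46.2% to 48.8% were then occupied. The median percentile of the 19 regions among all, 21.8 by fold (21.9 to 24.3 without a library), was 62.9 by pileup over background and 52.3 by −log10 q. The other alternatives moved these counts by less than 1.5 times; of 100 values for single genes 26 moved by more. At annotated starts, an alternative added after seeing the data, 6 genes were occupied and 23 of the lists, which have fewer genes with a start. Of all protein-coding genes with a start 46.9% were occupied this way. No paired analysis was possible because all libraries belong to 1 group. In library 1, the one with the lowest background, the 19 regions rest on as few as 13 fragments.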

Other observations

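The topoisomerase genes Top2a and Top2b lie beside Rara and Rarb and had regions within 100 kb of them. The Top2b region (16364509 to 16366123) had folds of 8.99, 10.3 and 11.3, or 10.2 ± 1.18 (SD, n = 3), above either Rarb region by its mean. The Top2a region (99023903 to 99025041) had 6.28 ± 0.90 (SD, n = 3). Beside Nr2c1, the region given to Ndufa12, a subunit gene of mitochondrial complex I (94198905 to 94199529), had 9.89, 12.8 and 12.6, or 11.7 ± 1.61 (SD, n = 3), above the Nr2c1 start region in each library. In the Nr2f6 window the highest fold was 30.7 ± 4.85 (SD, n = 3), in a region of only 232 bp (71433088 to 71433319) nearest to Ankle1, a DNA repair nuclease gene.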
